A study of Mus musculus with 4 samples.

Results

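The erythroid genes described here are 29 of the 55416 gene IDs in the deposited count table: the adult globins, genes of heme synthesis, of the red cell membrane and its skeleton, of blood group antigens, and erythroid regulators and receptors. They were taken by symbol, and all 29 symbols matched an Ensembl ID. The counts come from myeloid-derived suppressor cells (MDSCs), immature neutrophil-like and monocyte-like cells of tumor-bearing hosts that restrain T cells. Ascitic fluid, from which they were sorted, was taken at day 14 from mice injected with EL4, a lymphoma line of mouse T cell origin. All hosts carried the tumor and were either wild type (WT) or without Sphk2, the gene of sphingosine kinase 2 (Sphk2 KO, the knockout), with 2 libraries of each genotype. The labels give neither strain, sex and age nor the knockout allele, name the sort markers only as standard, and do not say whether each library is a mouse of its own. The p-values thus cover the spread between these samples, which may be technical.

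Red cells and their precursors carry hemoglobin, a tetramer of alpha and beta globin chains that each hold a heme. Heme is made from glycine and succinyl-CoA, beginning with an aminolevulinate synthase and ending with ferrochelatase, and the erythroid program is driven by the factors Gata1, Tal1 and Klf1. The membrane is stabilized by a spectrin skeleton that is tied through ankyrin to the anion exchanger band 3. Mature red cells have no nucleus, and young ones, the reticulocytes, still hold messenger RNA. Inbred mouse strains differ in their adult beta globin haplotype, and the symbols Hbb-bs and Hbb-bt name the copies in the reference strain.

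The globin genes come in near-identical pairs, which limits how their reads can be told apart. The stretches around the base that differs are shown for this reason, from the longest reading frames of the GENCODE M21 transcripts, with that base in capitals. Hbb-bs and Hbb-bt spell the same protein over reading frames of 444 bases, which differ at 1 base (C417T, counted from the A of the start codon, Hbb-bs first).
Hbb-bs: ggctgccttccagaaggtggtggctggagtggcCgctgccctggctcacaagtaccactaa
Hbb-bt: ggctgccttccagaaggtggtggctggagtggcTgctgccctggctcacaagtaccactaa
Hba-a1 and Hba-a2 also encode the same protein, over 429 bases that differ at 1 base (C381T, Hba-a1 first).
Hba-a1: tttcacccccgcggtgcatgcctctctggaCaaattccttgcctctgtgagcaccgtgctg
Hba-a2: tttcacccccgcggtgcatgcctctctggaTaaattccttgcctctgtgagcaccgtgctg
Of the 75-base sequences in the longest annotated transcript, 64.3% of those of Hbb-bs occur in Hbb-bt and 56.6% of those of Hbb-bt in Hbb-bs. The shares are 62.2% for Hba-a1 and 81.0% for Hba-a2. The split of counts within a pair is therefore uncertain, and how reads that match both copies were counted was not given in the sources used here. Among the other members only Car1 (6.61%), Slc25a37 (5.26%) and Fech (1.60%) share any such sequence with another gene.

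Promoters of 6 members are shown as reference sequence, since factors such as Gata1 and Klf1 are known to act on erythroid genes. Whether the promoters bear on the counts was not tested. Each line gives the 120 bases before the RefSeq start (GRCm38.p6), with matches in capitals to a GATA motif (GATA with A or T before it and A or G after it), a CACCC-type motif (CCNCNCCC) and CCAAT, on either strand. In order, they are chr7:103827929-103828048 (minus strand), chr7:103813924-103814043 (minus), chr11:32283552-32283671 (plus), chrX:150547297-150547416 (plus), chr4:119189996-119190115 (minus) and chr6:41704326-41704445 (minus).
Hbb-bs: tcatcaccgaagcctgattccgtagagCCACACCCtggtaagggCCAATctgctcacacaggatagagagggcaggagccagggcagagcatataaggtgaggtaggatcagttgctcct
Hbb-bt: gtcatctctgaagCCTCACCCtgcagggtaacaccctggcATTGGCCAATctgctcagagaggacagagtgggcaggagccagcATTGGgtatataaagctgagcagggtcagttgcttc
Hba-a1: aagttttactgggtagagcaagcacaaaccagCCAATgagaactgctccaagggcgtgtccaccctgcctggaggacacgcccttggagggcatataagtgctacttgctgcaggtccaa
Alas2: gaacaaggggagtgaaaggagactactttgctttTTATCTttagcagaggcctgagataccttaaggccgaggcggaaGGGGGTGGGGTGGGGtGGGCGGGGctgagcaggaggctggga
Ermap: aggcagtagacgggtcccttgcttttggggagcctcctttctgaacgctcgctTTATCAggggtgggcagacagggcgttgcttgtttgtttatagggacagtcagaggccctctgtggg
Kel: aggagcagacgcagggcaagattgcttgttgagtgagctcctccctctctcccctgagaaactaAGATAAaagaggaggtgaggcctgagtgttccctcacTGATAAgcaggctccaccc
Hba-a2 is not shown because 247 of its 250 bases before the start run unbroken in Hba-a1 too, against a longest shared run of 14 bases between Hbb-bs and Hbb-bt. The GATA match of Hbb-bs and of Hba-a1 lies farther upstream than the 120 bases shown. Each of the 6 has some match within those 120 bases, whereas Epb42, Tal1, Tfrc and Trim58 have 0 there. Within 250 bases before the start, 14 of the 22 members with a promoter entry held a GATA motif, against 26.5% of all 32851 promoter windows. The CACCC-type motif was found in 13 of the 22, against 45.9% of all windows, and CCAAT in 13 of the 22, against 33.8%. The units differ: a member counted if any of its windows held the motif, whereas the shares of all are per window. Hba-a1 and Hba-a2 counted separately despite their near-identical sequence. In the 24 windows of these 22 genes, matches to different motifs overlapped in 0.

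The libraries held 14087613 to 24685576 counts. Sphk2 itself had 1033 and 743 counts in WT against 57 and 100 in the knockout, in the order of the replicate numbers, as for all pairs of values below. All 10 neutrophil and granulocytic MDSC markers listed were detected, led by S100a9 at a mean of 6318 CPM in WT against 10529 CPM in the knockout, where CPM is the usual count scaled to library size, with TMM (trimmed mean of M values) factors. At 0.0349% to 0.0884% of all counts, the 29 erythroid genes together were a small part of each library. Of the 29 genes, 28 passed the filter on low counts and were tested, and Trim58 did not. Of the 28, 22 were above the minimum of 0.647 CPM (before TMM factors) in both WT libraries, while Kel, Rhag, Klf1, Gata1 and Epor were above it in both Sphk2 KO libraries but not in both WT libraries, and Car1 in 1 library of each genotype. For those 5 genes a higher value in Sphk2 KO is therefore partly set by the filter.

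Erythroid genes had higher values in Sphk2 KO than in WT across most of the group. Among the 22 genes above the minimum in both WT libraries, the largest fold changes ran from 4.29-fold for Hbb-bs, a beta globin, through Ermap, a blood group protein, and the anion exchanger Slc4a1 to 6.14-fold for dematin (Dmtn). Transferrin receptor (Tfrc) and ferrochelatase (Fech) differed little. The edgeR quasi-likelihood test over all genes nevertheless called 0 of the 28 (smallest adjusted p = 0.119, for Dmtn), against 0.109% of all 16566 genes tested. At an unadjusted p under 0.05, 18 of the 28 were higher and 0 lower, where 3.06% of all genes were higher and 7.47% lower. DESeq2 called 6, all higher: Ank1, Aqp1, Dmtn, Ermap, Kel and Slc4a1, against 0.234% of all genes. A log2 fold change of at least 1 was seen in 16 of the 28 and in 1.12% of all genes, and a value above 0 in 27 of the 28 and in 49.9% of all genes. The median log2 fold change of the 28 was 1.24, beside -0.000747 for all genes tested, and 1.25 over all 29 without the filter. Both Sphk2 KO libraries lay above both WT libraries in 23 of the 28, against 20.5% of all genes. Sphk2 KO replicate 2 was the highest of the 4 libraries in 22 of the 28, against 31.4% of all genes. Without the 5 genes that passed the filter only through the Sphk2 KO libraries, a selection made after the data were seen, the values over the other 23 were lower. Of these 23, 11 had a log2 fold change of at least 1, 14 were higher at an unadjusted p under 0.05, 19 did not overlap between genotypes, and the median was 0.95. Which cells these transcripts came from was not tested. In bulk samples such as these, more cells that hold them and more RNA per such cell cannot be told apart.

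**Figure D1:**
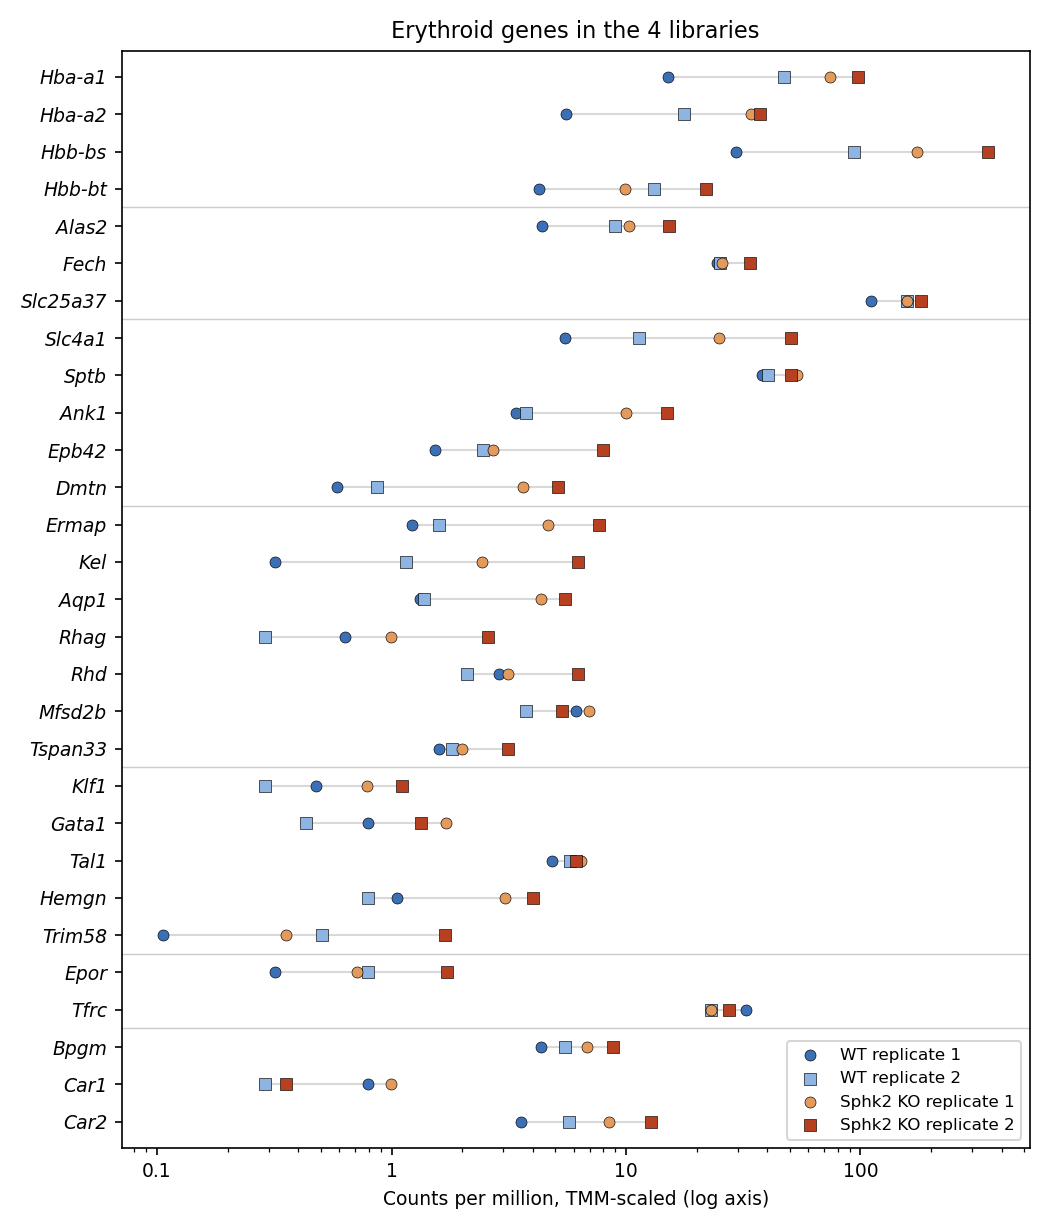
Level of each of the 29 erythroid genes in the 4 libraries, in TMM-scaled CPM on a log axis, with genes grouped by role and separated by lines. The Sphk2 KO points lie to the right of the WT points for most genes, with Mfsd2b, Trim58, Epor, Tfrc, Car1 and Hbb-bt as the genes whose genotypes overlap.

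**Figure D2:**
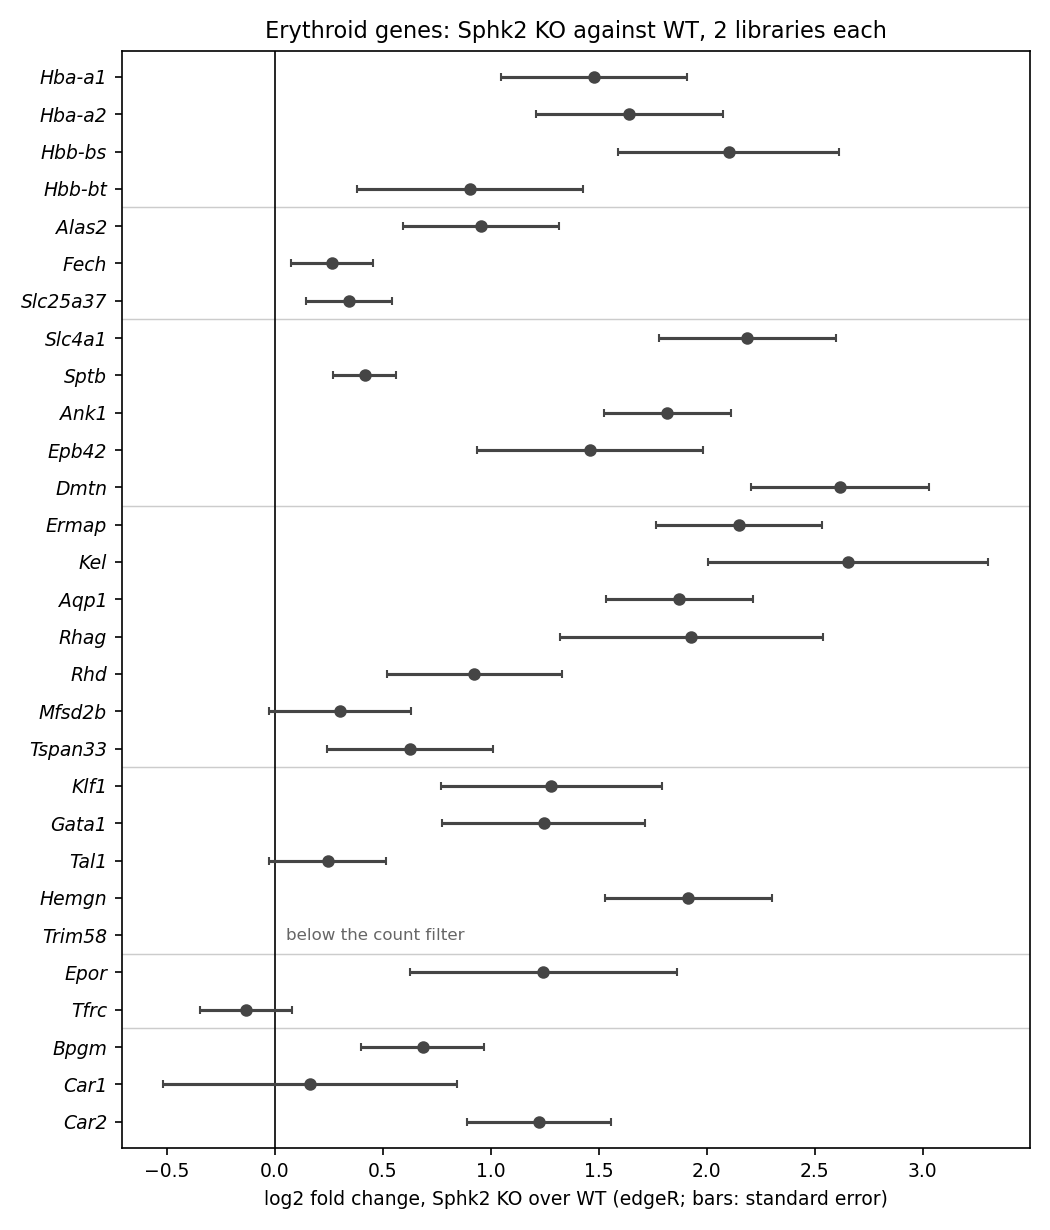
Log2 fold change of each gene in Sphk2 KO over WT from edgeR (2 libraries each), with standard errors as bars and a line at 0. Dmtn and Kel lie farthest to the right at 2.62 and 2.65, Tfrc alone lies below 0, and Trim58 was below the count filter.

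The globins Hbb-bs and Hba-a1 were among the most abundant members. Hba-a2 and Hbb-bt, at means of 11.6 and 8.68 CPM in WT, lay below Slc25a37 (133.9 CPM), Sptb, Tfrc and Fech there. The summed globin level differed more between genotypes than that of any other role group. Per kilobase of the longest transcript, Hbb-bs had the highest mean level in both genotypes, at 98.1 CPM per kilobase in WT and 418.8 in Sphk2 KO, followed by Hba-a1 at 44.4 and 122.7. Hbb-bs, an adult beta chain, had 29.4 and 93.8 CPM in WT against 174.5 and 351.6 CPM in the knockout. Its Sphk2 KO libraries lay above its WT libraries, and its 2 WT libraries were themselves well apart. The log2 fold change of Hbb-bs was 2.10 with a standard error (SE) of 0.511 (edgeR adjusted p = 0.349).
Hba-a1, an adult alpha chain, had 15.1 and 47.0 CPM in WT against 74.3 and 97.3 CPM in the knockout (edgeR log2 fold change 1.48, SE 0.431, adjusted p = 0.401). Hba-a2, its copy, had 5.56 and 17.6 CPM in WT against 34.1 and 37.2 CPM in the knockout (edgeR log2 fold change 1.64, SE 0.432, adjusted p = 0.392). Both alpha genes were lowest in WT replicate 1 and did not overlap between genotypes.
Hbb-bt, the minor beta copy, had 4.24 and 13.1 CPM in WT against 9.90 and 21.9 CPM in the knockout. Here the genotypes overlapped, with Sphk2 KO replicate 1 below WT replicate 2 (edgeR log2 fold change 0.90, SE 0.521, adjusted p = 0.558).

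Summed over the 4 globins, the level was 54.3 and 171.5 CPM in WT against 292.8 and 508.0 CPM in the knockout. The means were 112.9 ± 82.9 CPM in WT against 400.4 ± 152.2 CPM in the knockout (SD, n = 2 each), a ratio of 3.55. That ratio was 2.33 with WT replicate 1 left out and 7.37 with WT replicate 2 left out. Embryonic globins were at or near 0: Hbb-y and Hba-x had 0 counts in all 4 libraries, which allows up to 0.122 to 0.213 CPM before TMM factors (3 counts in a library, counting error only), and Hbb-bh1 had 1 count in WT replicate 2.

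The split of counts between both beta globin copies differed between the WT and the Sphk2 KO libraries. Of the counts of both beta genes in a library, Hbb-bt held 12.6% (exact 95% binomial interval 10.1% to 15.4%) in WT replicate 1 and 12.3% (10.7% to 14.1%) in WT replicate 2. In Sphk2 KO it held 5.37% (4.53% to 6.31%) in replicate 1 and 5.87% (5.38% to 6.40%) in replicate 2. The share was thus close to equal within each genotype and lower in both Sphk2 KO libraries, with intervals, which cover counting error only, that do not overlap between genotypes. The means were 12.4 ± 0.225% in WT and 5.62 ± 0.358% in Sphk2 KO (SD, n = 2 each). A two-sided exact permutation test gave p = 0.333, which is the smallest p that 2 against 2 libraries can give.
The alpha pair served as a comparison measured the same way, and the same exact permutation test also gave p = 0.333. The means of the Hba-a2 share were 27.1 ± 0.218% in WT and 29.6 ± 2.68% in Sphk2 KO (SD, n = 2 each). Both Sphk2 KO shares were above both WT shares, replicate 2 only narrowly. Hba-a2 held 26.9% and 27.2% of the counts of both alpha genes in WT against 31.5% and 27.7% in the knockout, and the WT intervals (22.6% to 31.6% and 24.3% to 30.3%) overlapped those of Sphk2 KO (29.1% to 33.9% and 26.1% to 29.3%). The alpha genes held 38.0% and 37.7% of all globin counts in WT and 37.0% in Sphk2 KO replicate 1, but 26.5% (25.7% to 27.3%) in Sphk2 KO replicate 2.
On chromosome 7, in gene order among the tested genes of the GRCm38 annotation, Hbb-bs lies 2 genes and Hbb-bt 3 genes from Trim5, the nearest gene called between the genotypes (log2 fold change -4.39). Trim12a (-10.89) and Trim34b (4.11), also called, lie 3 and 5 genes from Hbb-bs. Sphk2 lies on chromosome 7 as well, but farther from Hbb-bs and Hbb-bt than these Trim genes. None of the called genes with a place in that annotation lies on chromosome 11 with the alpha globins. Whether these neighbours bear on the share of Hbb-bt was not tested. Since the labels give no strain for either genotype, a difference in beta globin haplotype and a difference in the expression of Hbb-bs and Hbb-bt cannot be told apart.

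**Figure D3:**
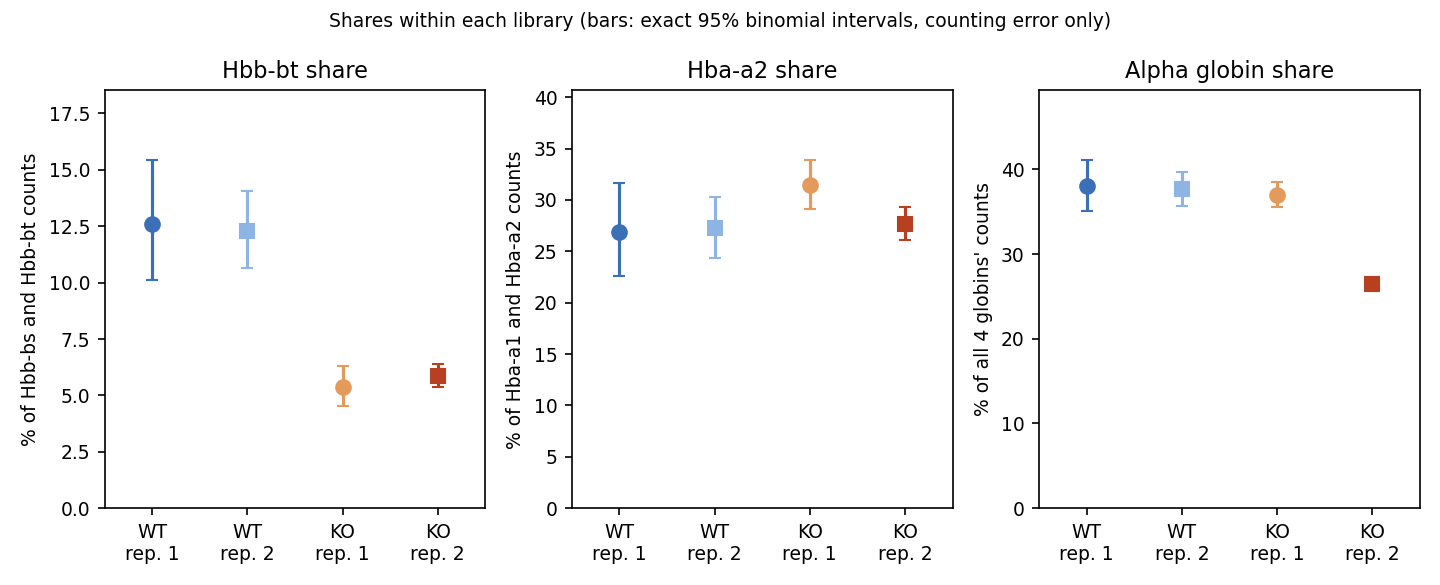
Share of Hbb-bt in the counts of both beta globin genes, of Hba-a2 in those of both alpha globin genes, and of alpha globins in the counts of all 4, in percent per library, with exact 95% binomial intervals as bars. The Hbb-bt share is near 12% in both WT libraries and under 6% in both Sphk2 KO libraries, the Hba-a2 share lies between 26.9% and 31.5% throughout, and the alpha share is lowest in Sphk2 KO replicate 2 at 26.5%.

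Of the genes of heme synthesis and mitochondrial iron import, the erythroid-specific Alas2 had the largest difference and the other 2 small ones. Alas2, the erythroid aminolevulinate synthase that begins heme synthesis, had 4.40 and 8.94 CPM in WT against 10.3 and 15.2 CPM in the knockout (edgeR log2 fold change 0.95, SE 0.362, adjusted p = 0.430). The groups did not overlap, although WT replicate 2 and Sphk2 KO replicate 1 lay close together. Alas2 overlaps Apex2 on the opposite strand, and whether the counting used strand was not given in the sources used here.
Fech, ferrochelatase, which puts iron into the ring, had 24.4 and 25.1 CPM in WT against 25.7 and 33.7 CPM in the knockout (edgeR log2 fold change 0.27, SE 0.189). Slc25a37, mitoferrin 1, which brings iron into mitochondria, had 110.7 and 157.2 CPM in WT against 158.1 and 181.4 CPM in the knockout (edgeR log2 fold change 0.34, SE 0.198). Fech was nearly equal in all libraries but Sphk2 KO replicate 2, and WT replicate 2 and Sphk2 KO replicate 1 were nearly equal for Slc25a37.

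Of the genes of the membrane skeleton and the anion exchanger, all 5 had both Sphk2 KO libraries above both WT libraries, as 20.5% of all genes did. DESeq2 called 3 of the 5 (0.234% of all genes) and edgeR 0. Slc4a1, band 3, the chloride-bicarbonate exchanger of red cells, had 5.51 and 11.3 CPM in WT against 24.9 and 50.8 CPM in the knockout. Its Sphk2 KO libraries lay well above the higher WT library, and its log2 fold change was 2.19 (SE 0.409, edgeR adjusted p = 0.191, DESeq2 adjusted p = 7.19e-06).
Ank1, the ankyrin that links band 3 to spectrin, had 3.39 and 3.75 CPM in WT against 10.0 and 15.0 CPM in the knockout (edgeR log2 fold change 1.82, SE 0.292, adjusted p = 0.132, DESeq2 adjusted p = 0.000251). Its WT libraries were nearly equal. Dmtn, dematin, an actin-bundling protein of the skeleton, had 0.583 and 0.866 CPM in WT against 3.63 and 5.11 CPM in the knockout, from 11, 12, 51 and 115 counts (edgeR log2 fold change 2.62, SE 0.411, adjusted p = 0.119, DESeq2 adjusted p = 0.00203).
Epb42, protein 4.2, which binds band 3 and ankyrin, had 1.54 and 2.45 CPM in WT against 2.71 and 7.95 CPM in the knockout (edgeR log2 fold change 1.46, SE 0.523). Sphk2 KO replicate 2 stood far above the rest, and without that library the log2 fold change of Epb42 was 0.46. Sptb, the erythroid beta spectrin, had a smaller difference, at 37.9 and 40.3 CPM in WT against 53.8 and 50.5 CPM in the knockout (edgeR log2 fold change 0.42, SE 0.147, adjusted p = 0.425). Per length, its WT level of 3.76 CPM per kilobase was the highest of these 5 genes, before Slc4a1 at 1.85. Sptb overlaps Plekhg3 on the opposite strand, and Ank1 overlaps short RNA genes and predicted genes on both strands.

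Of the 7 genes for blood group antigens, channels and membrane transporters, 6 had both Sphk2 KO libraries above both WT libraries, as 20.5% of all genes did. DESeq2 called 3 of the 7 (0.234% of all genes) and edgeR 0. Ermap, the erythroblast membrane protein that carries the Scianna antigens, had 1.22 and 1.59 CPM in WT against 4.63 and 7.64 CPM in the knockout (edgeR log2 fold change 2.15, SE 0.384, adjusted p = 0.178, DESeq2 adjusted p = 0.00374). Kel, the Kell antigen, a membrane endopeptidase, had 0.318 and 1.15 CPM in WT against 2.42 and 6.26 CPM in the knockout, from 6, 16, 34 and 141 counts (edgeR log2 fold change 2.65, SE 0.65, adjusted p = 0.354, DESeq2 adjusted p = 0.0257). Aqp1, the water channel that carries the Colton antigens, had 1.32 and 1.37 CPM in WT against 4.34 and 5.51 CPM in the knockout (edgeR log2 fold change 1.87, SE 0.341, adjusted p = 0.184, DESeq2 adjusted p = 0.0294). Aqp1 and Ermap had close replicates in WT, while Kel was spread in both genotypes.
Rhag, the glycoprotein that the Rh antigens need to reach the membrane, had 0.636 and 0.289 CPM in WT against 0.997 and 2.58 CPM in the knockout, from 12, 4, 14 and 58 counts (edgeR log2 fold change 1.93, SE 0.609). Rhd, the Rh antigen itself, had 2.86 and 2.09 CPM in WT against 3.13 and 6.22 CPM in the knockout (edgeR log2 fold change 0.92, SE 0.405). For Rhd, Sphk2 KO replicate 1 lay just above the higher WT library and most of the distance came from replicate 2. Without Sphk2 KO replicate 2 the log2 fold change was 0.34 for Rhd and 1.06 for Rhag. Tspan33, a tetraspanin linked to erythroid maturation, had 1.59 and 1.80 CPM in WT against 1.99 and 3.15 CPM in the knockout (edgeR log2 fold change 0.62, SE 0.383).
Mfsd2b exports sphingosine 1-phosphate, the product of sphingosine kinases, from red cells and platelets. It was the member of this group that did not follow the others, at 6.09 and 3.75 CPM in WT against 6.98 and 5.33 CPM in the knockout. The genotypes overlapped, and the log2 fold change was 0.30 (SE 0.329, edgeR adjusted p = 0.744).

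The erythroid regulators were near the count filter, apart from Tal1. Hemgn, hemogen, a nuclear protein of erythroid cells, had the widest difference among them, at 1.06 and 0.793 CPM in WT against 3.06 and 4.00 CPM in the knockout (edgeR log2 fold change 1.91, SE 0.386, adjusted p = 0.219). Gata1, the zinc finger factor of erythroid, megakaryocyte and mast cells, had 15 and 6 counts in WT against 24 and 30 in the knockout (edgeR log2 fold change 1.25, SE 0.469, adjusted p = 0.429). Klf1, the factor that binds the CACCC box of the beta globin promoter, had 9 and 4 counts in WT against 11 and 25 in the knockout (edgeR log2 fold change 1.28, SE 0.513, adjusted p = 0.448). By CPM neither gene overlapped between genotypes, on few counts.
Tal1, a helix-loop-helix factor of blood progenitors and erythroid cells, had 4.82 and 5.77 CPM in WT against 6.41 and 6.13 CPM in the knockout (edgeR log2 fold change 0.25, SE 0.271, adjusted p = 0.748). Trim58, a ubiquitin ligase of late erythroblasts, had 2 and 7 counts in WT against 5 and 38 in the knockout, so most of its counts were in Sphk2 KO replicate 2.

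The receptors showed no common direction. Epor, the receptor for erythropoietin, had 6 and 11 counts in WT against 10 and 39 in the knockout, with overlapping genotypes by CPM (edgeR log2 fold change 1.24, SE 0.618, adjusted p = 0.512). Tfrc, the transferrin receptor, which dividing cells of many kinds use to take up iron, had 32.4 and 23.0 CPM in WT against 23.1 and 27.4 CPM in the knockout. It was the single tested member with a value below 0 (edgeR log2 fold change -0.13, SE 0.212, adjusted p = 0.829), and WT replicate 1 was its highest library. The log2 fold change of Tfrc was 0.13 without that library. A list of 12 proliferation genes was highest in the same library too, with a summed level of 676.5 and 421.0 CPM in WT against 513.7 and 396.8 CPM in the knockout.

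Of the enzymes of red cell metabolism, Car2 and Bpgm did not overlap between genotypes and Car1 did. Car2, a carbonic anhydrase of red cells and other tissues, had 3.55 and 5.70 CPM in WT against 8.48 and 12.8 CPM in the knockout (edgeR log2 fold change 1.22, SE 0.332, adjusted p = 0.400). Bpgm, which makes the bisphosphoglycerate that lowers the oxygen affinity of hemoglobin, had 4.34 and 5.48 CPM in WT against 6.84 and 8.84 CPM in the knockout (edgeR log2 fold change 0.68, SE 0.284). Car1, the carbonic anhydrase abundant in red cells, had 15 and 4 counts in WT against 14 and 8 in the knockout. Its log2 fold change of 0.16 (SE 0.681) turned to -0.015 with library size alone as the scaling, to -0.30 with WT replicate 2 left out and to -0.66 with Sphk2 KO replicate 1 left out.

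Other genes of the same pathways were read from lists drawn up beside the members. Of 34 further erythroid genes, 27 were tested, and edgeR called 0 in either direction. Of the 27, 19 had positive and 8 negative values, 16 had both Sphk2 KO libraries above both WT libraries (20.5% of all genes) and 5 both below (22.7% of all genes), and the median log2 fold change was 0.33. Cd24a, a surface protein of many blood cells and the most abundant of the list, gave 0.36 (SE 0.20). DESeq2 called 2 of the list as higher (0.234% of all genes). Sox6, a factor of definitive erythroid cells that was among them and was chosen after its values were seen, had 15 and 14 counts in WT against 42 and 125 in the knockout (edgeR log2 fold change 2.27, SE 0.44, adjusted p = 0.197).

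The 13 other genes of heme synthesis, which all nucleated cells use, had a median log2 fold change of 0.06 and values from -0.64 to 0.45, with 0 called by edgeR. Of these genes, 10 of 13 overlapped between genotypes, as did 9411 of all 16566 genes tested. Alas1, the general aminolevulinate synthase, was their most abundant member and gave 0.45 (SE 0.157, edgeR adjusted p = 0.425), against the 0.95 of its erythroid counterpart Alas2. Its level was 126.0 CPM in WT against 172.3 CPM in the knockout (means). Of 21 genes of iron and heme handling 18 were tested, with a median of 0.15, 11 positive and 7 negative values and 0 called. Ltf, lactoferrin, the iron-binding protein of neutrophil granules, was the most abundant and gave 0.33 (SE 0.366).

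Markers of other cell types were read in the same libraries, and edgeR called 0 in each list. DESeq2 called the neutrophil markers Mmp8 and Retnlg and the progenitor marker Kit as higher (0.234% of all genes) and the T cell marker Thy1 as lower (0.211% of all genes), all named after their values were seen. The 10 neutrophil markers summed to 20703 and 28592 CPM in WT against 32862 and 39575 CPM in the knockout, with 7 of 10 higher in both Sphk2 KO libraries (20.5% of all genes). Their median log2 fold change was 0.68, beside 1.24 for the erythroid genes tested. The erythroid median was 0.95 without the 5 genes that passed the filter only through the Sphk2 KO libraries. The 10 T cell and EL4 markers had the opposite sign, at 56.3 and 45.1 CPM in WT against 30.2 and 23.4 CPM, with 9 of 10 lower in both Sphk2 KO libraries (22.7% of all genes) and a median of -1.43. The 8 B cell markers summed to 1267 and 1101 CPM in WT against 1188 and 571.8 CPM in the knockout, with a median of -0.60. The 10 monocyte and macrophage markers summed to 1078 and 1061 CPM in WT against 970.9 and 864.9 CPM in the knockout, and the 7 progenitor markers to 259.9 and 112.0 CPM against 156.3 and 128.1 CPM. The median of the progenitor list was -1.24, with 6 of 7 values negative and Kit at 0.98 (SE 0.214). In each of these lists 0 markers were at 0 in all libraries. Their part in the erythroid values was not tested. Sphk2 KO replicate 2, in which most erythroid genes were highest, was also the deepest library, at 24685576 counts. WT replicate 1, the lowest for the globins, was the next deepest at 16535999 counts. Whether depth bears on the erythroid values was not tested.

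Lists for cell types that share Gata1 with the erythroid branch or clear red cells mostly overlapped between genotypes, as did 9411 of all 16566 genes tested. The 13 megakaryocyte and platelet markers summed to 63.4 and 76.9 CPM in WT against 83.7 and 73.2 CPM in the knockout. Among them Pf4, a defining platelet gene, had 1 to 6 counts in each library and Gp1bb 0 to 3. Itga2b had 297 to 387 counts, Gp1ba 187 to 379 and Clec1b 161 to 323, all named after their values were seen. Clec1b had both Sphk2 KO libraries above both WT libraries (20.5% of all genes), with a log2 fold change of 0.24 (SE 0.212). Itgb3, the most abundant, gave 0.31 (SE 0.262). The 10 markers of mast cells, basophils and eosinophils summed to 1462 and 2069 CPM in WT against 1889 and 2064 CPM in the knockout, led by Hdc, and 9 of 9 tested markers overlapped between genotypes. Of 7 markers of macrophages that take up red cells, led by the iron exporter Slc40a1 at 668.3 and 927.5 CPM (means of WT and Sphk2 KO), 5 of 6 tested overlapped, with a median of 0.26.

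**Figure D4:**
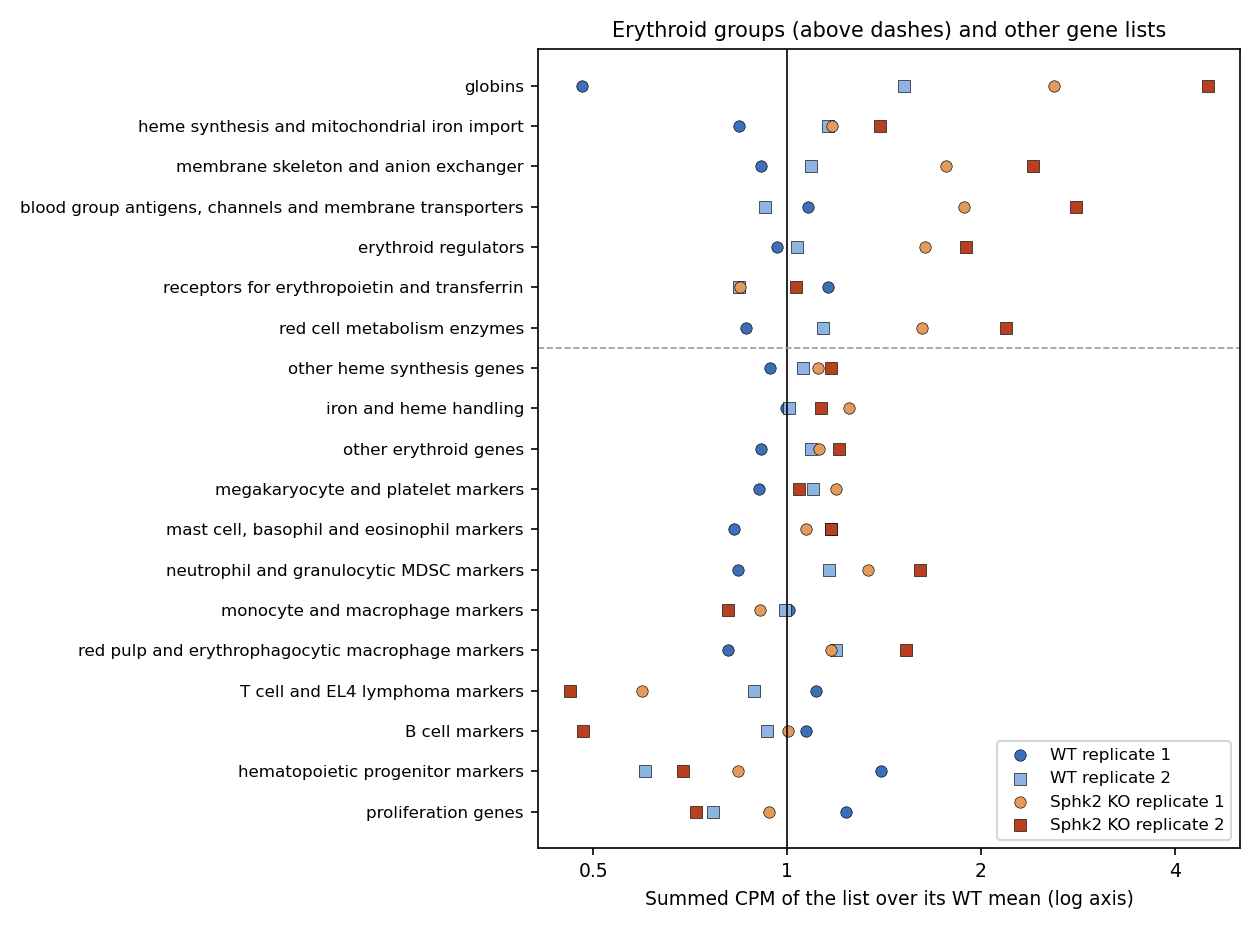
Summed level of each gene list in each library, divided by its mean in WT, on a log axis, with the erythroid groups above the dashed line and the other lists below. The globins spread most. Every erythroid group but the receptors has both Sphk2 KO libraries to the right of both WT libraries. Below the dashes this also holds for the neutrophil, other heme synthesis, iron and heme handling and other erythroid lists. It holds as well for the sum over all genes tested, which is not drawn. That sum was 873833 and 1014400 CPM in WT against 1022950 and 1094730 CPM in the knockout, a ratio of means of 1.12. The ratio was 1.14 for other heme synthesis, 1.19 for iron and heme handling, 1.16 for other erythroid genes and 1.47 for neutrophil markers. The T cell list and the monocyte and macrophage list have both Sphk2 KO libraries to the left. The receptor group and the remaining lists, among them the platelet and mast cell lists, have genotypes that overlap.

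The number of erythroid genes called depended on which library was left out, while the direction of most did not. With WT replicate 1 left out edgeR called 2, where 0.16% of all genes were called as higher, and with WT replicate 2 left out 15 (2.6%). It called 16 with Sphk2 KO replicate 1 left out (0.654%) and 5 with replicate 2 left out (0.155%), each of them higher in the knockout. In such a fit the lone library of a genotype is assumed to vary like the pair of the other. Hbb-bs and Slc4a1 were the 2 genes called in each of the 4 fits, with log2 fold changes between 1.47 and 3.18 for Hbb-bs and between 1.58 and 2.80 for Slc4a1. Without Sphk2 KO replicate 2 the median of the members was 0.86, and the log2 fold change was 0.21 for Hbb-bt and 0.34 for Rhd, while that of Dmtn was 2.35 and that of Aqp1 1.69. For Kel it was 3.79 without WT replicate 2, 1.92 with WT replicate 1 left out and 1.79 with Sphk2 KO replicate 2 left out. Without WT replicate 2 it was 2.52 for Hba-a1, and without WT replicate 1 it was 0.86 for Hba-a1 and 1.01 for Hba-a2. With all 4 libraries, edgeR called 0 members with RLE size factors or robust empirical Bayes (0.0423% of all genes called as higher). It also called 0 with library size alone (0.0483%) and with a stricter filter (0.0362%), and limma-voom called 0 (0.0483%). Without the count filter edgeR called 15 (0.488%), and 20 with the replicate number as a block (5.75%), a pairing that the labels do not state.

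**Figure D5:**
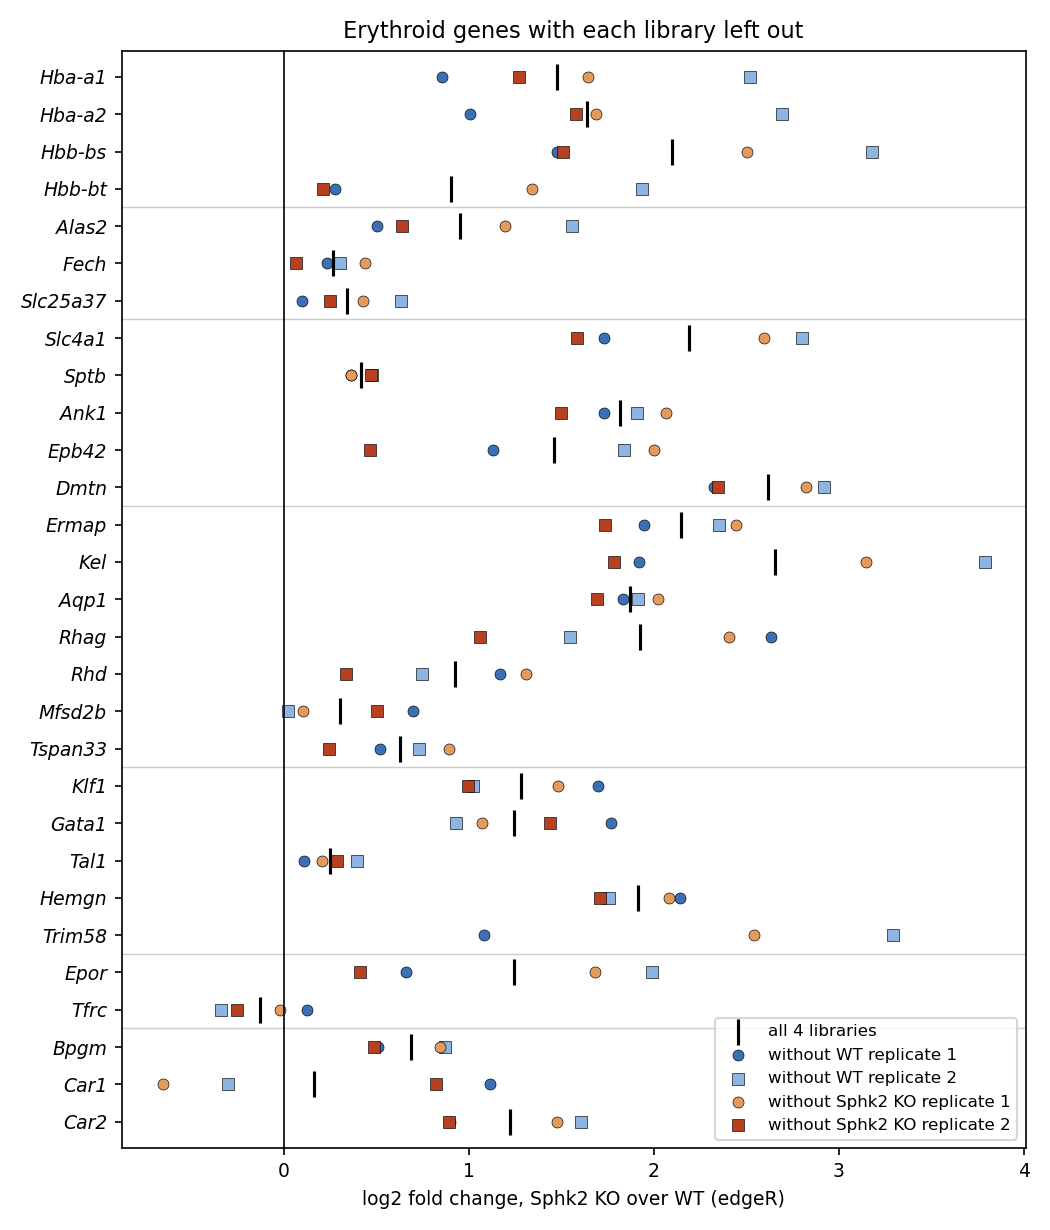
Log2 fold change of each erythroid gene in Sphk2 KO over WT (edgeR) with all 4 libraries (black bars) and with each library left out in turn (points). Tfrc and Car1 have points on both sides of 0, Dmtn has all points at 2.32 or higher, and the globins have their highest value without WT replicate 2.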

How the data were processed

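Poly(A) RNA of sorted MDSCs was made into directional libraries and sequenced as paired ends, from 2 WT and 2 Sphk2 KO samples, per the labels' protocols. The authors deposited raw counts per Ensembl gene ID. The submitters' processing notes name Trim Galore, STAR, featureCounts and DESeq2 with the build GRCm39. For versions, annotation release, strand setting and multi-mapped reads, nothing was given in the sources used here.

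The 4 libraries were compared by edgeR's quasi-likelihood test (version 4.0.16, R 4.3.3; filterByExpr and TMM at their defaults, a model of genotype alone), with Benjamini-Hochberg adjustment over 16566 genes and calls at an adjusted p under 0.05. DESeq2 1.42.0, limma-voom (limma 3.58.1), other scalings and filters, robust empirical Bayes, a replicate block and leaving out each library were alternatives. CPM used whole library sizes with TMM factors, and the SE is the log2 fold change over the square root of F. Replicates were not repeats of 1 library: their chi-square per degree of freedom was 26.1 in WT and 17.0 in Sphk2 KO.

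The genes and lists were chosen with earlier results of these data known. All 29 members are named, with the most abundant gene of most further lists. Some results for genes of those lists are not reported here. Of the listed genes, Ahsp had no match. Gene order, overlaps, transcript lengths and shared 75-base sequences come from GENCODE M21 (GRCm38), joined by gene ID, and promoters from RefSeq (GRCm38.p6). Exact binomial intervals and floors of 3 counts cover counting error only.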

Additional observations from a re-analysis of the deposited data

How the results depend on the processing

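Of the erythroid genes, 0 were called by edgeR at its default settings (18 at an unadjusted p under 0.05). The same held with RLE size factors, library size alone, the stricter filter and robust empirical Bayes, and limma-voom called 0. Without the count filter edgeR called 15 (0.488% of all genes called as higher), and DESeq2 called 6. Of all genes 18 were called, 615 without the filter and 76 with DESeq2, and of the further lists' genes 0, 28 and 6. Of the calls over all genes 38.9% were higher, and 52.6% by DESeq2. Leaving out a library gave 2 to 16 erythroid genes, 54 to 1061 of all genes and 1 to 38 of the further lists' genes, median log2 fold changes of 0.86 to 1.61 and summed globin ratios of 2.33 to 7.37. Library size alone moved the median of all genes to -0.17 and that of the members to 1.06. That median was 0.95 without the members that passed the filter only through both Sphk2 KO libraries, a choice made after seeing the data. Direction reversed for Tfrc with WT replicate 1 left out (0.13, over a range of -0.34 to 0.13 as each library was left out) and for Car1 with library size alone (-0.015) and with WT replicate 2 (-0.30) or Sphk2 KO replicate 1 (-0.66) left out, over a range of -0.66 to 1.12. The causes were not tested.

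With the replicate number as a block, edgeR called 20 erythroid genes, all higher (5.75% of all genes), 2637 of all genes and 51 of the further lists' genes. The labels do not say that the numbers pair the libraries. Deviations of the libraries numbered 1 from their genotype means correlated at 0.44 across 16566 genes, which are not independent. With 2 libraries a genotype, single values of genes under about 10 counts carry wide counting error.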
